A study of Mus musculus with 20 samples.

Results

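The Ms4a genes encode a family of small membrane proteins. The 7 listed members are Ms4a7, Ms4a4a, Ms4a4c, Ms4a6b, Ms4a6c, Ms4a6d and Ms4a14, which were taken by symbol from the 24421 genes counted in each library and followed through all 5 macrophage populations. Counts under the listed symbol were found for 5 of the 7, and Ms4a4a and Ms4a14 were not analysed here. All 5 members with a row (Ms4a7, Ms4a4c, Ms4a6c, Ms4a6b and Ms4a6d, in genome order) passed the filter on low counts.

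Total RNA was sequenced from macrophages of C57BL/6JRj mice, with 4 libraries in each of 5 populations and 20 libraries in all. The populations were dura macrophages with high surface MHC class II, dura macrophages with low MHC class II (named intermediate in the library titles), choroid plexus macrophages, peritoneal macrophages and microglia of the brain. Both dura populations and the choroid plexus are called the border populations here, because they come from the borders of the brain and not from its parenchyma. No genotype, transgene or treatment is named in the labels. Age, sex, cell isolation and whether the 4 libraries of a population come from separate animals could not be read from the labels, so every p-value measures the spread between libraries, which may be technical.

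Ms4a proteins cross the membrane several times and share this architecture with CD20, the B cell antigen encoded by Ms4a1, and with the beta chain of the high-affinity IgE receptor of mast cells, encoded by Ms4a2. Several members sit beside immune receptors in the membrane and modulate their signalling, and many are found mainly in cells of the myeloid lineage. In the brain, Ms4a7 is widely used to tell border macrophages from microglia.

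Each library held 13383274 to 32611875 counts assigned to genes, and the smallest totals were those of the choroid plexus (13383274 to 16052955) and microglia (15312617 to 17156227). Levels are given as CPM, the counts of a gene scaled to a common library total with TMM factors, as mean ± SD over n = 4 libraries. Marker lists differed between the populations, though not every list separated every pair. All 5 microglia markers had counts in microglia and summed to 25108 to 33790 CPM, against 3223 to 8113 in the border populations and 386 to 528 in peritoneal macrophages, where Sall1 had no count. All 4 MHC class II genes summed to 52451 to 58893 CPM in MHC II-high dura and to 2089 to 2319 in MHC II-low dura. The choroid plexus (43639 to 61449) overlapped MHC II-high dura, and peritoneal macrophages (483 to 4652) overlapped MHC II-low dura. Border macrophage markers summed to 6308 to 11573 CPM in the dura populations and 2605 to 3050 in the choroid plexus. In peritoneal macrophages they summed to 1093 to 2327 and in microglia to 17.2 to 24.1. Microglia replicate 3 stood apart with 19789 CPM of 6 choroid plexus epithelium markers, against 64.4, 693 and 322 in the other microglia libraries. These markers also summed to 3859 to 7257 CPM in the 4 choroid plexus libraries and to 30.2 or less in any dura or peritoneal library, and their part in the choroid plexus levels was not tested. Peritoneal replicates 1 and 4 and microglia replicate 5 stood apart from their groups in interferon response genes, and the members' calls, neighbour ratios, shares and nearest profiles are also given without them.

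The family lies in one cluster of 678559 bases on chromosome 19. In mm10, with positions from GENCODE release M21, Ms4a7 is at 11321039 to 11336146 on the minus strand, and Ms4a4c (11404770 to 11427246), Ms4a6c (11469366 to 11482192) and Ms4a6b (11516512 to 11531256) follow on the plus strand. Ms4a6d, at 11586604 to 11604849, is again on the minus strand. The 5 are therefore consecutive among the measured members, but each gap of 34.3 to 68.6 kb holds 1 other coding gene. Ms4a4a lies between Ms4a7 and Ms4a4c, Ms4a4b between Ms4a4c and Ms4a6c, Gm8369 between Ms4a6c and Ms4a6b, and Ms4a4d between Ms4a6b and Ms4a6d.

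How far reads can be told apart differs between the members. Ms4a7 shares none of its 1778 different stretches of 50 transcript bases with another gene. Ms4a6d shares 2.69% of its stretches with another Ms4a gene, Ms4a6b 5.66%, Ms4a6c 6.08% and Ms4a4c 8.19%. Counted against any gene, as for Ms4a7, the share is 2.69% for Ms4a6d, 5.89% for Ms4a6b, 56.9% for Ms4a6c and 8.19% for Ms4a4c. Most of the stretches that Ms4a6c shares are also in an antisense transcript, BE692007, and some are in genes elsewhere such as Prdm11 and Upb1. BE692007 covers 53.1% of the exon length of Ms4a6c. Whether the counting used strand is not given in the sources used here, so the level of Ms4a6c may include antisense reads and is uncertain. The deposited line for reads mapping to several places is 0 in every library, and how such reads were handled is not given.

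The sequences before 3 start sites are shown because Ms4a6c and Ms4a6b, neighbours with the most alike upstream sequences, had mean log2 ratios of −0.33 to 0.04 in the border populations and moved to opposite sides in peritoneal macrophages and microglia, while Ms4a7 followed another pattern. RefSeq (GRCm38.p6) gives a promoter window, 250 bases before to 50 after a start, for 4 of the 5 measured members, and the bases before the start that lie in no GENCODE exon are printed 5′ to 3′ on the gene's own strand. For Ms4a6b these are the first 144, since a longer annotated transcript has an exon after them. Capitals mark the letters GAAANNGAA or their reverse complement, the core of an interferon response type motif. The printed stretches lie at chr19:11469118-11469365 for Ms4a6c (plus strand), chr19:11518309-11518452 for Ms4a6b (plus strand) and chr19:11336147-11336396 for the Ms4a7 start farthest upstream (minus strand).
Ms4a6c: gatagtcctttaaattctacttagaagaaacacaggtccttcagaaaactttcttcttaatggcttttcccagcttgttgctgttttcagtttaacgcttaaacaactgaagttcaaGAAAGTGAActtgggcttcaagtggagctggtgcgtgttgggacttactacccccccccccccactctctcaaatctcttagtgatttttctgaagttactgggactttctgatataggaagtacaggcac
Ms4a6b: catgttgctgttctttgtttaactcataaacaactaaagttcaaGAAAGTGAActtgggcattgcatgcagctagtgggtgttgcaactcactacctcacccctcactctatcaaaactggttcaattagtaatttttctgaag
Ms4a7: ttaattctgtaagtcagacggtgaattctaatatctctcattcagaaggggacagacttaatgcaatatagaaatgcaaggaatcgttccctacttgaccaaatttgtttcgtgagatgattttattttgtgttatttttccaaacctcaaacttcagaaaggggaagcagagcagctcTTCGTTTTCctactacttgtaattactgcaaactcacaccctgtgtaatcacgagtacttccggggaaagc

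Aligned over the full windows, the Ms4a6c and Ms4a6b sequences were identical at 192 of 225 aligned bases (85.3%). The longest identical run was 48 bases, beginning 49 bases before the start of Ms4a6c and 118 before that of Ms4a6b. No other pair among the windows of the measured members shared a run over 9 bases, and their identity was 58.4 to 66.8%. The letters GAAAGTGAA begin 133 bases before the start of Ms4a6c and 206 before that of Ms4a6b. In Ms4a7 the match TTCGTTTTC, on the opposite strand, begins 71 bases before the start, and the window of its second RefSeq start holds GAAAAGGAA. The window of Ms4a4c holds no match. Of 32851 promoter windows of this length in the table, 8.56% hold GAAANNGAA on either strand. Searched on both strands in the same way, GAGGAAGT (a PU.1 or ETS type motif, in 3.20% of all windows), TGCTGA (a MAF type motif, in 19.5%) and TATAAA (in 13.6%) had no match in the windows of the 4 measured members. A match describes letters and not a bound site, and no match says only that these letters are not in this window.

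Across the populations, all 5 members were high in the 3 border populations and low in peritoneal macrophages, microglia or both. Against microglia, 5 of 5 were called higher in MHC II-high dura, where 15.7% of all 13960 genes tested were called higher. The same count was 5 of 5 in MHC II-low dura (13.8% of all genes) and 5 of 5 in the choroid plexus (12.1%). Against peritoneal macrophages, 5 of 5 were called higher in MHC II-high dura (20.1% of all genes), 5 of 5 in MHC II-low dura (20%) and 5 of 5 in the choroid plexus (24.1%). Calls come from edgeR's quasi-likelihood test and required both a fold of 2 or more and a Benjamini-Hochberg adjusted p, over all genes tested, below 0.05. The comparisons share libraries, so their counts are not independent of each other.

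In these 6 comparisons the libraries of a border population lay above every library of the other population for 5 of 5 members. Libraries of the 2 populations did not overlap for 48.7% of all genes between MHC II-high dura and microglia, 46.9% between MHC II-low dura and microglia and 45.0% between choroid plexus and microglia. Against peritoneal macrophages these shares were 44.5%, 49.1% and 58.7%. The members' median log2 fold change over microglia was 4.01 in MHC II-high dura, 3.63 in MHC II-low dura and 3.64 in the choroid plexus, beside medians of 0.02, 0.02 and 0.09 over all genes tested. Over peritoneal macrophages it was 6.14, 5.15 and 5.30, beside 0.10, 0.11 and 0.13. In bulk samples, fewer cells with a transcript and less transcript per cell cannot be told apart.

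**Figure D1:**
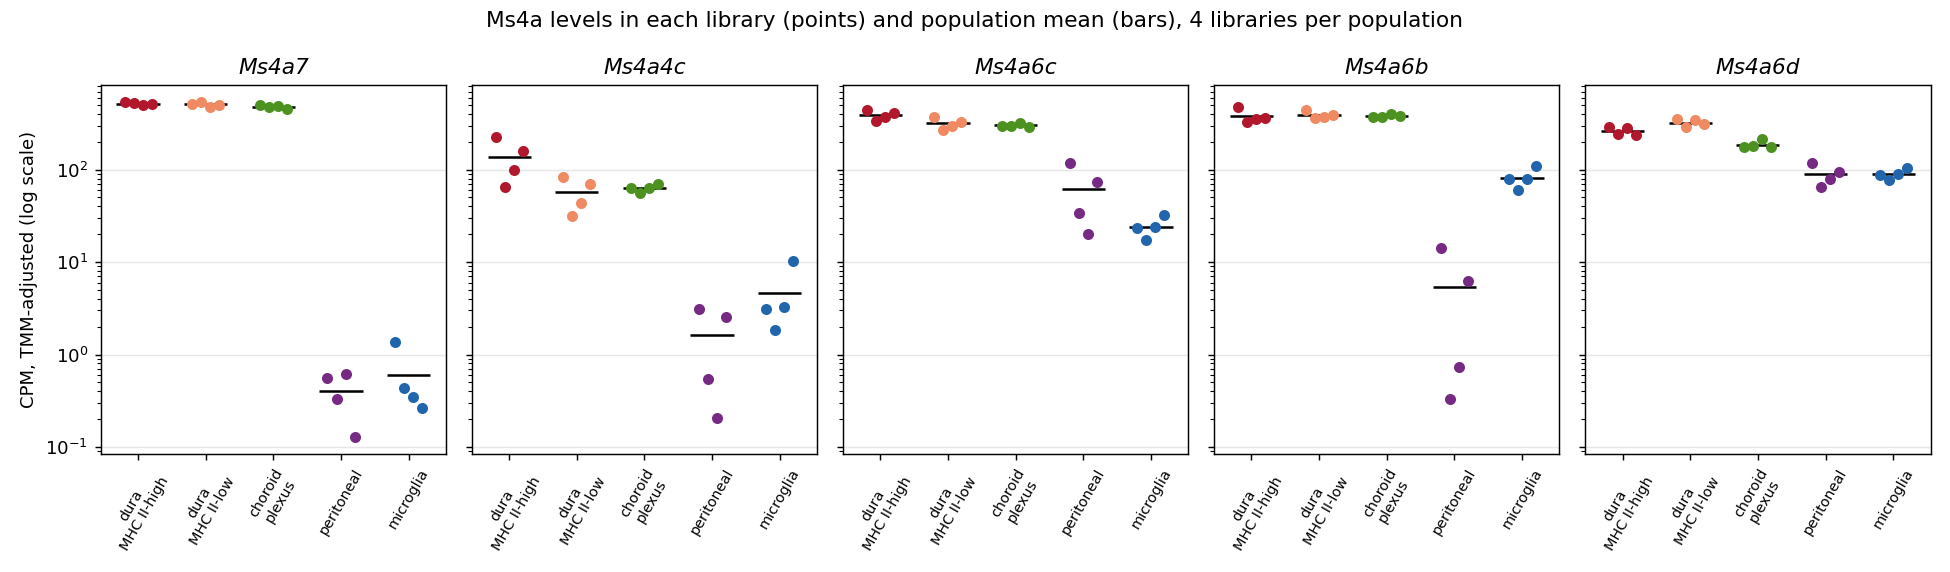
Level of each measured Ms4a member in CPM on a log axis, 1 point per library (replicates from left to right) and a bar at the mean of each population. Ms4a7 is flat in the border populations and near 0 elsewhere, Ms4a6b lies lower in all 4 peritoneal libraries than in microglia, and Ms4a6d spans the narrowest range.

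Ms4a7 showed the widest contrast. In replicates 1 to 4 its level was 544, 521, 495 and 509.6 CPM in MHC II-high dura, 517, 536, 473 and 502 in MHC II-low dura, and 502, 475, 487 and 451 in the choroid plexus. These 12 libraries overlapped between all 3 populations and differed by little more than the spread within each. In peritoneal macrophages Ms4a7 stood at 0.553, 0.328, 0.621 and 0.129 CPM, from 16, 9, 18 and 3 counts, and in microglia (replicates 1, 3, 4 and 5 in the titles) at 1.38, 0.432, 0.347 and 0.264 CPM, from 22, 7, 6 and 4 counts. Every border library lay far above every library of these 2 populations, which overlapped each other.

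The means were 517 ± 20.5 CPM in MHC II-high dura, 507 ± 26.6 in MHC II-low dura and 479 ± 21.3 in the choroid plexus, against 0.606 ± 0.520 in microglia and 0.407 ± 0.224 in peritoneal macrophages. In the choroid plexus, log2 Ms4a7 was 9.62 ± 0.31 (SE) higher than in microglia, with an edgeR adjusted p of 8.69e-15. In MHC II-high dura the difference over microglia was 9.73 ± 0.32 and in MHC II-low dura 9.70 ± 0.32. Microglia replicate 1 held 22 of the 39 counts in microglia, and without it these 3 differences were 10.34, 10.46 and 10.45. Over peritoneal macrophages they were 10.14, 10.25 and 10.22, with SEs of 0.32. Between peritoneal macrophages and microglia, Ms4a7 did not pass the test (−0.52 ± 0.40, edgeR adjusted p = 0.258), and it stood at 0.23 without microglia replicate 1. With counts thinned to equal depth it was called lower in peritoneal macrophages, at −1.23 (edgeR adjusted p = 0.026).

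Ms4a4c, a member known to be induced by interferon in myeloid cells, was the most variable member within both dura populations. It stood at 226, 64.5, 99.8 and 158 CPM in MHC II-high dura, at 82.3, 31.5, 43.9 and 69.7 in MHC II-low dura and at 63.3, 55.8, 63.1 and 70.8 in the choroid plexus. The same replicate numbers were high and low in both dura populations, with replicate 1 highest and replicate 2 lowest, whereas the choroid plexus libraries lay close together. Levels were 3.14, 0.546, 0.207 and 2.57 CPM in peritoneal macrophages and 3.07, 1.85, 3.30 and 10.2 in microglia. Peritoneal replicates 1 and 4 and microglia replicate 5 were the high libraries, and peritoneal macrophages and microglia overlapped.

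The mean level of Ms4a4c was 137 ± 70.6 CPM in MHC II-high dura, 63.3 ± 6.15 in the choroid plexus, 56.8 ± 23.3 in MHC II-low dura, 4.62 ± 3.80 in microglia and 1.62 ± 1.46 in peritoneal macrophages. Over microglia the log2 differences were 4.90 ± 0.65 in MHC II-high dura, 3.63 ± 0.63 in MHC II-low dura and 3.79 ± 0.63 in the choroid plexus, with edgeR adjusted p = 0.000135 or less. Without microglia replicate 5 they were 5.57, 4.30 and 4.46. Over peritoneal macrophages the differences were 6.42 ± 0.71, 5.15 ± 0.68 and 5.30 ± 0.68, and without peritoneal replicate 1 they were 7.01, 5.74 and 5.90.

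Ms4a6c stood at 445, 332, 367 and 411 CPM in MHC II-high dura, 372, 268, 297 and 330.3 in MHC II-low dura and 300, 297, 316 and 292 in the choroid plexus. The dura populations overlapped each other, and every MHC II-high dura library lay above every choroid plexus library. Peritoneal libraries held 118, 34.1, 20.2 and 72.9 CPM and microglia 23.3, 17.2, 24.1 and 32.2. Peritoneal replicates 1 and 4 were again the high ones, and replicates 2 and 3 lay near or within the range of microglia.

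Mean Ms4a6c was 389 ± 49.4 CPM in MHC II-high dura, 317 ± 44.9 in MHC II-low dura, 301 ± 10.2 in the choroid plexus, 61.4 ± 43.9 in peritoneal macrophages and 24.2 ± 6.17 in microglia. The log2 difference over microglia was 4.01 ± 0.40 in MHC II-high dura, 3.71 ± 0.40 in MHC II-low dura and 3.64 ± 0.40 in the choroid plexus, with edgeR adjusted p = 8.56e-07 or less. Over peritoneal macrophages the difference was 2.66 ± 0.38, 2.37 ± 0.37 and 2.30 ± 0.37, with edgeR adjusted p = 4.21e-05 or less. In contrast to Ms4a7 and Ms4a4c, the microglial level was the lowest of the 5.

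Ms4a6b, also known from T cells, stood at 475, 329, 354 and 360.4 CPM in MHC II-high dura, 444, 366, 371 and 386 in MHC II-low dura and 375, 371, 396 and 376 in the choroid plexus. The 3 border populations overlapped, and only replicate 1 of each dura population exceeded 400 CPM. Peritoneal macrophages held 14.2, 0.328, 0.724 and 6.21 CPM, from 412, 9, 21 and 145 counts, and microglia 79.8, 60.3, 80.0 and 109. Every microglia library lay above every peritoneal library, and the peritoneal libraries were far apart among themselves.

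Means of Ms4a6b were 379 ± 64.9 CPM in MHC II-high dura, 392 ± 35.8 in MHC II-low dura, 379.5 ± 10.9 in the choroid plexus, 82.2 ± 20 in microglia and 5.37 ± 6.49 in peritoneal macrophages. The log2 difference over microglia was 2.21 ± 0.61 in MHC II-high dura, 2.25 ± 0.61 in MHC II-low dura and 2.21 ± 0.61 in the choroid plexus, with edgeR adjusted p = 0.00736 or less. Over peritoneal macrophages it was 6.14 ± 0.73, 6.18 ± 0.73 and 6.14 ± 0.73, and without peritoneal replicate 1 it was 7.34, 7.39 and 7.35. The fit gives each gene a single spread for all populations, so the peritoneal libraries of Ms4a6b enter the SE of every comparison.

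Ms4a6d, a macrophage member reported in regulation of inflammasome activity, had the narrowest range of population means. It stood at 288, 246, 283 and 237 CPM in MHC II-high dura, 349.5, 289, 342 and 311 in MHC II-low dura and 175, 178, 213 and 177 in the choroid plexus. Here the 3 border populations did not overlap, with MHC II-low dura highest and the choroid plexus lowest. The dura populations nearly touched, at 288.2 CPM in the highest MHC II-high library and 288.9 in the lowest MHC II-low library. Peritoneal macrophages held 118, 65.1, 78.7 and 95.1 CPM and microglia 86.5, 76.5, 90.2 and 103, and these 2 populations overlapped.

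Means of Ms4a6d were 323 ± 28.1 CPM in MHC II-low dura, 264 ± 25.8 in MHC II-high dura, 186 ± 18.2 in the choroid plexus, 89.3 ± 22.8 in peritoneal macrophages and 89.1 ± 11 in microglia. The log2 difference over microglia was 1.86 ± 0.15 in MHC II-low dura and 1.57 ± 0.14 in MHC II-high dura, with edgeR adjusted p = 1.71e-08 or less. In the choroid plexus it was only just past 2-fold, at 1.06 ± 0.14 over microglia (edgeR adjusted p = 4.67e-06) and 1.06 ± 0.14 over peritoneal macrophages (2.48e-06). Without choroid plexus replicate 3, its highest library, both fell short of 2-fold at 0.92 and 0.96, with edgeR adjusted p = 7.29e-05 and 2.42e-05. Leaving out microglia replicate 1 or 3 (0.99 and 0.93 over microglia), MHC II-high dura replicate 1 or 3 (1.00 and 1.00, just under 2-fold) or peritoneal replicate 2 (0.93 over peritoneal macrophages) did the same.

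**Figure D2:**
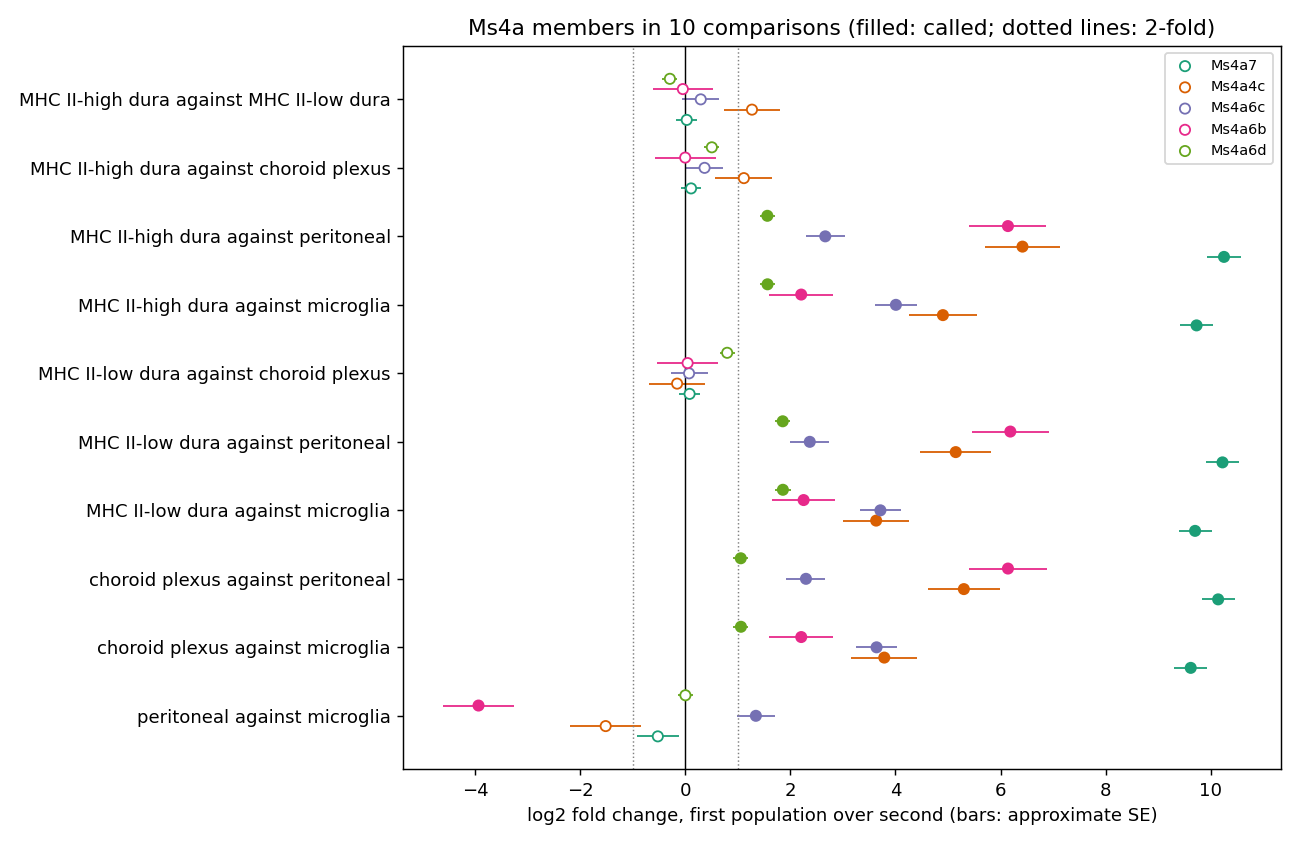
Log2 fold change of each member in the 10 pairwise comparisons, with its approximate SE as a bar, filled where the gene was called and dotted lines at 2-fold. All 5 members are filled in the 6 comparisons of a border population with peritoneal macrophages or microglia, and none in the 3 comparisons among border populations.

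Among the border populations no member was called. Between MHC II-high and MHC II-low dura, 0 of 5 passed in edgeR, where 3.88% of all genes were called in either direction. In DESeq2, which gave no adjusted p for Ms4a6b, none of the other members passed. An unadjusted edgeR p under 0.05 was found for 1 of 5. That gene was Ms4a4c, with a log2 difference of 1.27 ± 0.54 and an edgeR adjusted p of 0.157. Its libraries overlapped, since replicate 2 of MHC II-high dura (64.5 CPM) lay below replicates 1 and 4 of MHC II-low dura. Matched by replicate number, MHC II-high dura was higher each time, at 226 against 82.3, 64.5 against 31.5, 99.8 against 43.9 and 158 against 69.7 CPM. The labels do not state that these numbers pair libraries, and a fit with the replicate number as a block is given in the last section. Ms4a7 (0.03 ± 0.20), Ms4a6b (−0.05 ± 0.58), Ms4a6c (0.29 ± 0.35) and Ms4a6d (−0.29 ± 0.14, edgeR adjusted p = 0.209) did not pass. Ms4a6d was the 1 of 5 members whose libraries did not overlap, lower in MHC II-high dura, where 18.2% of all genes were separated in this way. The margin was narrow, with 288.2 CPM in the nearest MHC II-high library and 288.9 in the nearest MHC II-low library. The members' median was 0.03, beside 0.02 over all genes.

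Against the choroid plexus, edgeR called 0 of 5 members in MHC II-high dura (9.88% of all genes in either direction) and 0 of 5 in MHC II-low dura (12.8%). DESeq2, again without an adjusted p for Ms4a6b, called none of the other members. Without a minimum fold, 1 of 5 passed in each comparison, Ms4a6d both times, beside 26.3% and 29.2% of all genes. Ms4a6d was higher by 0.51 ± 0.14 in MHC II-high dura (edgeR adjusted p = 0.0128) and by 0.80 ± 0.14 in MHC II-low dura (0.000287), short of 2-fold each time. Ms4a4c was 1.12 ± 0.54 higher in MHC II-high dura than in the choroid plexus (edgeR adjusted p = 0.141), and it passed with the 8 libraries of these 2 populations fitted alone (1.12, edgeR adjusted p = 0.0427). Libraries did not overlap for 2 of 5 members between MHC II-high dura and choroid plexus, Ms4a6c and Ms4a6d, beside 33.9% of all genes, and for 1 of 5, Ms4a6d, between MHC II-low dura and choroid plexus, beside 37.2%. The members' medians were 0.37 and 0.07, beside −0.01 and −0.01 over all genes.

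Peritoneal macrophages and microglia differed in opposite directions for the neighbours Ms4a6c and Ms4a6b. Ms4a6c was called higher in peritoneal macrophages (1.34 ± 0.37, edgeR adjusted p = 0.00364), 1 of 5 members beside 18.9% of all genes. Ms4a6b was called lower (−3.93 ± 0.67, edgeR adjusted p = 6.55e-05), 1 of 5 beside 25.7%. It was also the 1 of 5 members whose libraries did not overlap, beside 59.9% of all genes. Ms4a6d was level between the 2 populations (0.00 ± 0.14, edgeR adjusted p = 0.988), and Ms4a4c stood at −1.51 ± 0.68 (0.058). The members' median was −0.52, beside −0.11 over all genes.

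Peritoneal replicates 1 and 4, high in interferon response and MHC class II genes, changed these values. Without replicate 1, Ms4a6c fell short of 2-fold at 0.81 (edgeR adjusted p = 0.0216), and without replicates 1 and 4 it stood at 0.17 (0.49). Ms4a6b, in contrast, stood at −7.26 without both (edgeR adjusted p = 6.22e-13), and Ms4a4c was then called lower at −3.59 (0.00342). Ms4a4c also passed the threshold without MHC II-high dura replicate 1 (−1.54), peritoneal replicate 1 (−2.11), peritoneal replicate 4 (−1.83) or microglia replicate 3 (−1.81), and stood at −0.82 without microglia replicate 5. With all libraries it passed in DESeq2 (−1.56, adjusted p = 0.0301), and in edgeR with other processing given in the last section. Against the border populations 5 of 5 members remained called without both peritoneal libraries, in a setting that called 27% of all genes in either direction for MHC II-high dura, 29.5% for MHC II-low dura and 34.6% for the choroid plexus. Ms4a6b was then 9.46 to 9.51 higher in the border populations, Ms4a4c 7.23 to 8.49, Ms4a6c 3.48 to 3.83, Ms4a6d 1.37 to 2.16 and Ms4a7 9.96 to 10.06.

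Microglia replicate 3, the library rich in choroid plexus epithelium genes, ended 1 of these calls. Without it, 5 of 5 members were called higher in MHC II-high dura and 5 of 5 in MHC II-low dura than in microglia. In the choroid plexus 4 of 5 were, since Ms4a6d stood at 0.93. Of all genes, 28%, 25.7% and 23.8% were then called in either direction in these 3 comparisons. Log2 differences over microglia were then 9.42 to 9.53 for Ms4a7, 3.31 to 4.58 for Ms4a4c, 3.44 to 3.81 for Ms4a6c and 2.02 to 2.06 for Ms4a6b. Without microglia replicate 5, which was high in interferon response genes, 5 of 5 members were called in each of the 3 comparisons. With all libraries kept, 27.9%, 26.5% and 19.2% of all genes were called in either direction in these comparisons. Differences over microglia without replicate 5 were 3.74 to 4.11 for Ms4a6c, 2.30 to 2.35 for Ms4a6b, 1.07 to 1.87 for Ms4a6d and 9.32 to 9.43 for Ms4a7. Replicate 3 was the lowest of its group in Ms4a4c, Ms4a6c, Ms4a6b and Ms4a6d.

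Compared per length, as CPM per kb of the longest coding transcript, the make-up of the family differed between populations. Ms4a7 was the largest of the 5 members in the border populations, at 34.9 ± 3.19% of their sum in MHC II-high dura, 35.9 ± 3.10% in MHC II-low dura and 39.1 ± 1.34% in the choroid plexus (SD, n = 4). In peritoneal macrophages Ms4a6d (66.9 ± 12.5%) and Ms4a6c (30.5 ± 10.8%) made up nearly all of the sum. Without peritoneal replicates 1 and 4 these shares were 76.5% and 22.4%. In microglia Ms4a6d (57.8 ± 3.64%) and Ms4a6b (27.8 ± 1.59%) led, Ms4a6c held 11.9 ± 0.861% and Ms4a7 0.366 ± 0.316%. Leaving out microglia replicate 3 or 5 put Ms4a6d at 56.4 and 59.3%. With all annotated exons of a gene as its length, Ms4a7 fell to the third place in both dura populations and the second in the choroid plexus, at 18.9, 20 and 22.3% of the sum. The order of the 5 in peritoneal macrophages and in microglia was the same with both lengths.

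The ratio of neighbours within one library cancels depth and scaling, and its difference between populations does not depend on gene length. Log2 ratios of CPM were formed for the 4 neighbouring pairs with 2 prior counts and compared between all populations in 40 exact two-sided permutation tests of 4 against 4 libraries. In 28 of 40 the libraries did not overlap, and these had p = 0.0286, the smallest such a permutation test can give, and a Benjamini-Hochberg adjusted p of 0.0408 over the 40. Over all 12915 pairs of neighbouring coding genes tested, 44.8% of the same comparisons of ratios did not overlap, from 16.7% between the dura populations to 61.7% between peritoneal macrophages and microglia. The member pairs are less strictly adjacent, since the tested genes Ms4a4b, Gm8369 and Ms4a4d lie within all of them but Ms4a7 over Ms4a4c. By pair, the 28 were 6 of 10 for Ms4a7 over Ms4a4c, 4 of 10 for Ms4a4c over Ms4a6c, 9 of 10 for Ms4a6c over Ms4a6b and 9 of 10 for Ms4a6b over Ms4a6d.

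Ms4a6c and Ms4a6b, the closest neighbours and the pair with the shared 48-base run, moved in both directions. Their log2 ratio was 0.04 ± 0.12 in MHC II-high dura, −0.31 ± 0.10 in MHC II-low dura and −0.33 ± 0.02 in the choroid plexus. It was −1.77 ± 0.03 in microglia, with −1.77, −1.81, −1.72 and −1.76 in the 4 libraries. In peritoneal macrophages it was 4.39 ± 1.47, with 3.04, 6.36, 4.64 and 3.53. The ratio thus lay above that of every other population in all 4 peritoneal libraries and below it in all 4 microglia libraries, and MHC II-low dura and choroid plexus were the 1 pair of populations that overlapped (exact permutation p = 0.714, adjusted 0.733).

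Ms4a6b over Ms4a6d gave 1.04 ± 0.10 in the choroid plexus, 0.52 ± 0.18 in MHC II-high dura, 0.28 ± 0.11 in MHC II-low dura, −0.14 ± 0.17 in microglia and −5.21 ± 2.05 in peritoneal macrophages. The peritoneal libraries stood at −3.05, −7.29, −6.60 and −3.92, all below the other 16. The dura populations were the 1 pair that overlapped (exact permutation p = 0.0857, adjusted 0.107). Ms4a7 over Ms4a4c was 2.07 ± 0.76, 3.25 ± 0.65 and 2.92 ± 0.18 in MHC II-high dura, MHC II-low dura and choroid plexus, against −2.71 ± 1.63 in microglia and −1.32 ± 2.12 in peritoneal macrophages. All 6 comparisons of a border population with microglia or peritoneal macrophages passed for this pair. Without microglia replicate 5 the microglial ratio was −1.99.

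Ms4a4c over Ms4a6c passed the test in the 4 comparisons with peritoneal macrophages and in none of the other 6. The log2 ratio was −5.45 ± 0.59 there, against −1.65 ± 0.60 in MHC II-high dura, −2.57 ± 0.43 in MHC II-low dura, −2.26 ± 0.16 in the choroid plexus and −2.63 ± 0.67 in microglia. Between MHC II-low dura and microglia the ratios overlapped (exact permutation p = 0.857). There the 2 levels were higher in MHC II-low dura by similar folds, 12.4 (Ms4a4c) and 13.1 (Ms4a6c), which leaves their ratio nearly unchanged. Without peritoneal replicates 1 and 4 the peritoneal mean was −5.92 for this pair, 5.50 for Ms4a6c over Ms4a6b, −6.94 for Ms4a6b over Ms4a6d and 0.33 for Ms4a7 over Ms4a4c. The peritoneal ratios then overlapped those of another population in none of 16 comparisons, for which an exact permutation test of 4 against 2 libraries cannot give p below 0.133.

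**Figure D3:**
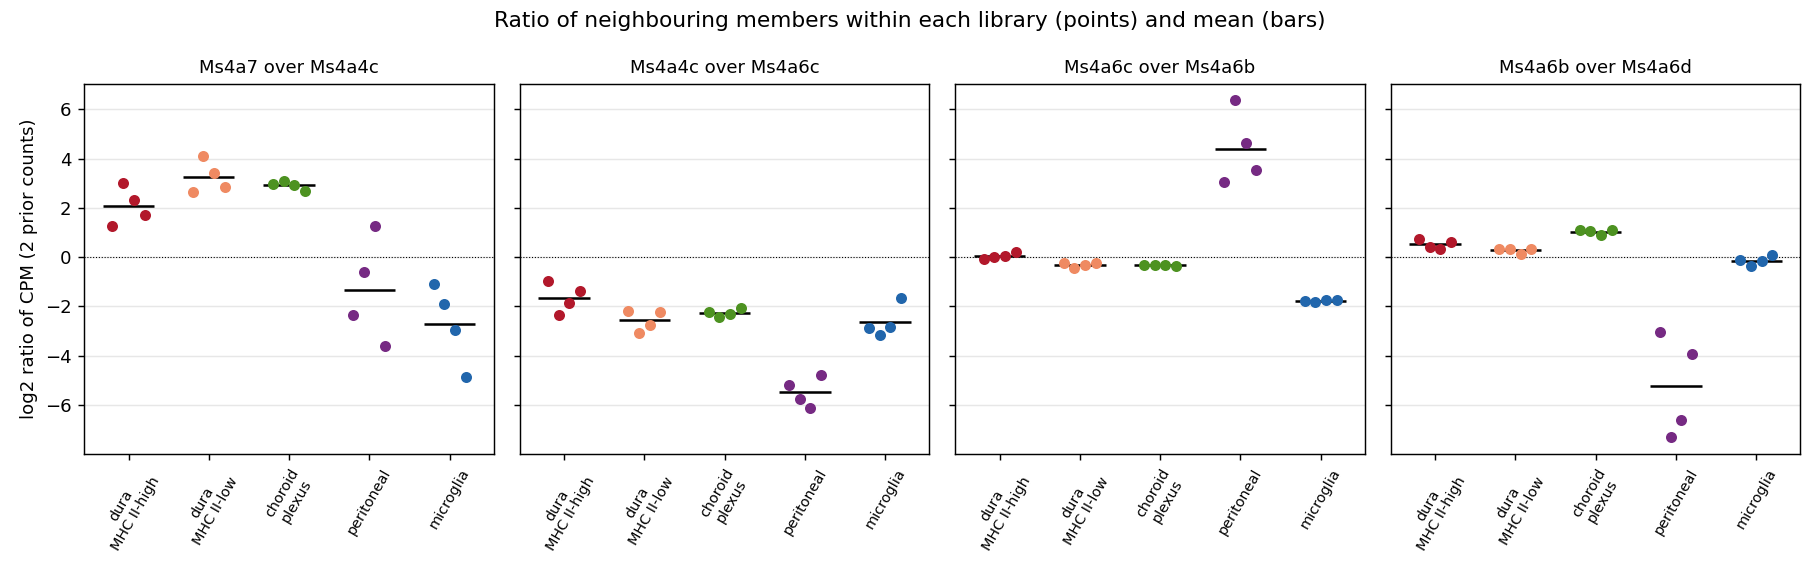
Log2 ratio of CPM of neighbouring members within each library (points, replicates from left to right) with the mean of each population as a bar and a dotted line at equal CPM. Ms4a6c over Ms4a6b is far above 0 in all 4 peritoneal libraries and below 0 in all 4 microglia libraries, and near 0 in the border populations.

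Within populations, Ms4a4c followed the interferon response genes. These 14 genes, all with counts in every population, summed to 4507, 1384, 2776 and 2803 CPM in MHC II-high dura and to 3798, 1522, 2724 and 2766 in MHC II-low dura. The sums were 1873, 1762, 1911 and 2251 in the choroid plexus, 2141, 441, 519 and 1851 in peritoneal macrophages and 203, 156, 209 and 1410 in microglia. Replicate 1 was thus the high library of both dura populations, replicates 1 and 4 of the peritoneal ones and replicate 5 of microglia.

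The library with the highest Ms4a4c was also the one with the highest interferon sum in 5 of 5 populations. For Ms4a6c, Ms4a6b and Ms4a6d this held in 4 of 5, and these 3 members had their highest library in common in 5 of 5. For Ms4a7 it held in 1 of 5. How often this holds over all genes was not counted, so these counts have no background beside them. The part of interferon responses in the levels of the members was not tested, and no correlation over libraries is given because the populations form separate clusters. The peritoneal libraries also differed in MHC class II genes, with sums of 4652, 1818, 483 and 3677 CPM over all 4 genes, high in the same replicates 1 and 4. Their part was likewise not tested.

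Monocyte markers, with counts for all 6 genes in every population, were highest where Ms4a4c and Ms4a6c were highest but did not follow them through all populations. They summed to 1069 to 1259 CPM in MHC II-high dura, where mean Ms4a4c and Ms4a6c were highest, and to 84.7 to 147 in MHC II-low dura, 72.8 to 126 in the choroid plexus, 632 to 914 in peritoneal macrophages and 3.08 to 11.5 in microglia. The peritoneal sums exceeded those of MHC II-low dura and choroid plexus, although mean Ms4a4c and Ms4a6c were lower there, at 1.62 and 61.4 CPM. In MHC II-high dura the highest monocyte sum was in replicate 4 and the highest Ms4a4c and Ms4a6c in replicate 1. The part of monocytes in these levels was not tested. T and NK cell markers, relevant for Ms4a6b and Ms4a4b, summed to at most 0.634 CPM in any library over 4 genes.

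**Figure D4:**
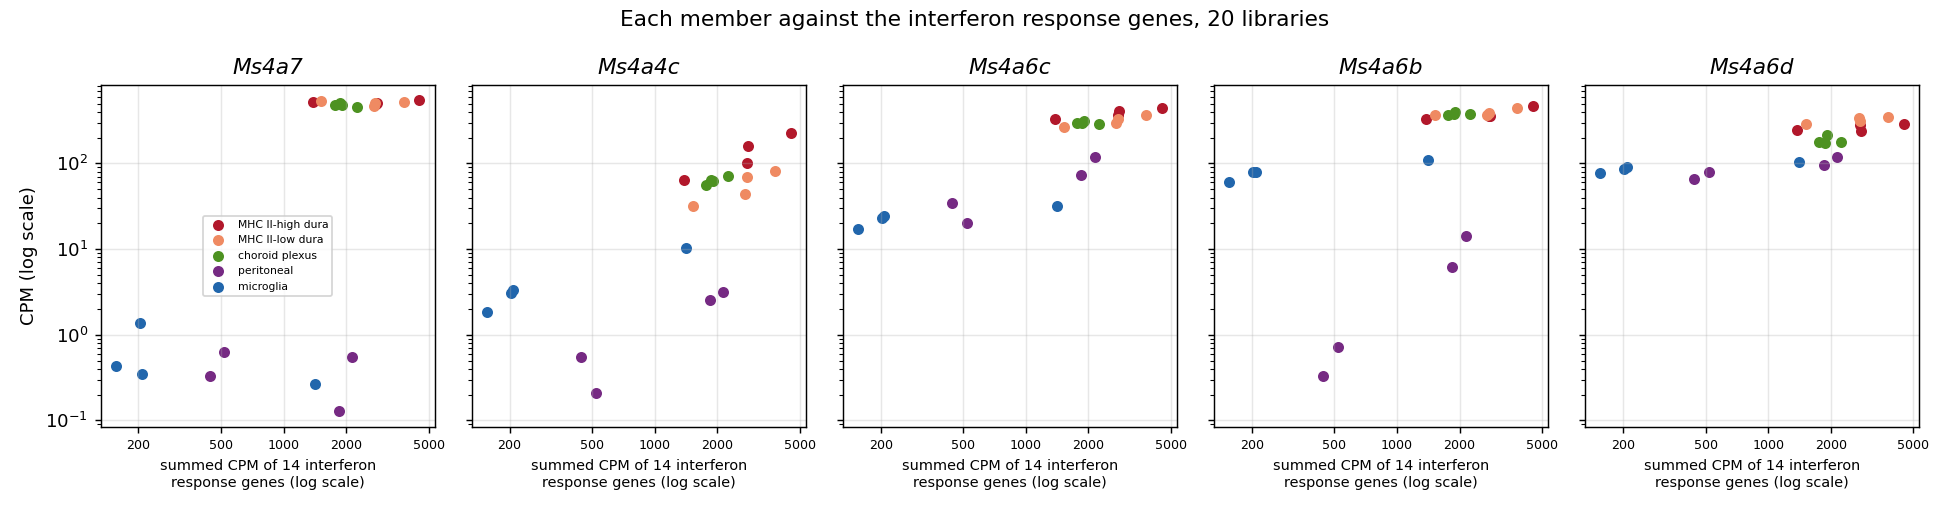
CPM of each member (log axis) against the summed CPM of 14 interferon response genes (log axis), 1 point per library and 1 colour per population. Within the dura, peritoneal and microglia populations Ms4a4c is highest where the sum is highest, while Ms4a7 stays at 451 to 544 CPM in all border libraries.

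Other genes with a similar profile were sought by the root mean square difference of centred log2 CPM over the 5 population means, among 7871 genes reaching 20 CPM. For Ms4a7 the nearest was Cd4, at 0.61, with means of 124 ± 16.5 CPM in MHC II-high dura, 266 ± 18 in MHC II-low dura and 103 ± 16.0 in the choroid plexus, and 0.277 or less in microglia and peritoneal macrophages. Mmp13 (0.92) and the chemokine gene Ccl7 (1.05) followed. Ms4a6c was nearest to Ifi44, an interferon-induced gene, at 0.19, and to Anxa5 (0.21) and Nr4a2 (0.36).

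Ms4a4c had Cd69 (0.46), Cxcr4 (0.57) and Col6a2 (0.63) as its nearest genes, and Ms4a6b had Egr2 (0.30), Col3a1 (0.44) and Egr3 (0.45). Ms4a6d had the closest matches, Lrp6 (0.13), Slc12a7 (0.15) and Clcn5 (0.16). With the 20 libraries in place of the 5 means, 4 of the 15 genes were kept, and the 3 nearest to Ms4a4c were then Ifit3 (0.89), Ifit3b (0.90) and Ifit2 (0.91), which are interferon-induced and of which Ifit3 and Ifit2 are in the list above. For Ms4a6c they were then Axl (0.52), Anxa5 (0.58) and Fgl2 (0.59), and Ifi44 was no longer among them. Without peritoneal replicates 1 and 4, 6 of the 15 were kept, with none for Ms4a6c or Ms4a6b, and without microglia replicate 3 or 5, 10 and 11 were. Over all 4 libraries of each population, no member was among the nearest 3 of another. The smallest distance between members was 0.96, between Ms4a6c and Ms4a6d, the largest 4.13, between Ms4a7 and Ms4a6d, and that between the neighbours Ms4a6c and Ms4a6b was 2.09.

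Of 11 other Ms4a symbols in the files, 6 had no count in any library, among them Ms4a2 and Ms4a3, and 4 passed the filter. Of these 4, Ms4a8a alone reached 10 CPM. It stood at 161, 112, 134 and 143 CPM in peritoneal macrophages, at most 4.70 in any dura library, at most 0.443 in the choroid plexus and at 1 count in all of microglia together. Ms4a8a fell by 5.35 ± 0.28 on the log2 scale in MHC II-high dura against peritoneal macrophages (edgeR adjusted p = 3.27e-12), opposite in direction to the 5 members. Over microglia it was higher in MHC II-high dura (7.32 ± 0.63) and MHC II-low dura (6.60 ± 0.67), like the members. In the choroid plexus it was called higher too (3.19 ± 1.15), but from 6, 3, 1 and 1 counts, near the limit of 3 per library. Against microglia, 3 of the 4 tested were called higher in each border population (15.7, 13.8 and 12.1% of all genes), and 1 lower in MHC II-low dura (12.7%). In the choroid plexus these include Ms4a8a. In border populations and microglia all 4 stayed under 10 CPM. Ms4a1, the CD20 gene, was at 4.26 ± 2.1 CPM in peritoneal macrophages, 2.19 ± 2.49 in MHC II-high dura and 0.604 or less on average elsewhere. A list of 6 B cell markers ran otherwise, with sums of 59.5 to 72.8 CPM in the choroid plexus, 37.9 to 55.8 in MHC II-high dura, 31.9 to 38.2 in MHC II-low dura, 29.7 to 43.7 in microglia and 4.48 to 26 in peritoneal macrophages.

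Ms4a4b, which holds most of the stretches that Ms4a4c shares with other genes, reached 6.29 CPM at most and had no count in microglia, where a count of 0 allows up to 3 counts per library. Ms4a4d, between Ms4a6b and Ms4a6d, was at 1.11, 1.58, 2.71 and 5.84 CPM in the choroid plexus, at most 0.739 in any other library, and without a count in MHC II-low dura. Tmem176a and Tmem176b, related genes elsewhere in the genome, were higher in each border population than in microglia and peritoneal macrophages, like the members, and had their highest means in the choroid plexus, at 819 ± 84.6 and 1695 ± 114 CPM.

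Of the 31 genes without an Ms4a symbol that lie in the cluster or within 300 kb of it, 12 were tested. In MHC II-high dura 1 of these 12 was called higher and 4 lower than in microglia (15.7 and 12.2% of all genes), in MHC II-low dura 2 and 4 (13.8 and 12.7%), and in the choroid plexus 1 and 1 (12.1 and 7.11%). Their medians were −0.26, −0.38 and −0.25. Against peritoneal macrophages, 4 were called higher and 1 lower in MHC II-high dura (20.1 and 9.18% of all genes), 3 and 1 in MHC II-low dura (20 and 11.9%), and 4 and 1 in the choroid plexus (24.1 and 12.6%). Here their medians were 0.38, 0.44 and 0.67. The nearest gene to the left of the cluster, Ccdc86, was 121.5 ± 13.9 CPM in microglia and 35.5 to 35.7 on average in the border populations, and Oosp2, to the right, had no count in any library. AW112010, a long noncoding RNA inside the cluster, stood at 92.4, 73.6, 83 and 75.6 CPM in MHC II-high dura, at 30.1 to 45.1 in MHC II-low dura and at 40.2 to 62.2 in the choroid plexus. It was at 49.3, 10.2, 8.86 and 11.7 CPM in peritoneal macrophages and 5.92 to 9.98 in microglia. Its highest library was that of Ms4a4c in 5 of 5 populations, again without a count over all genes.

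**Figure D5:**
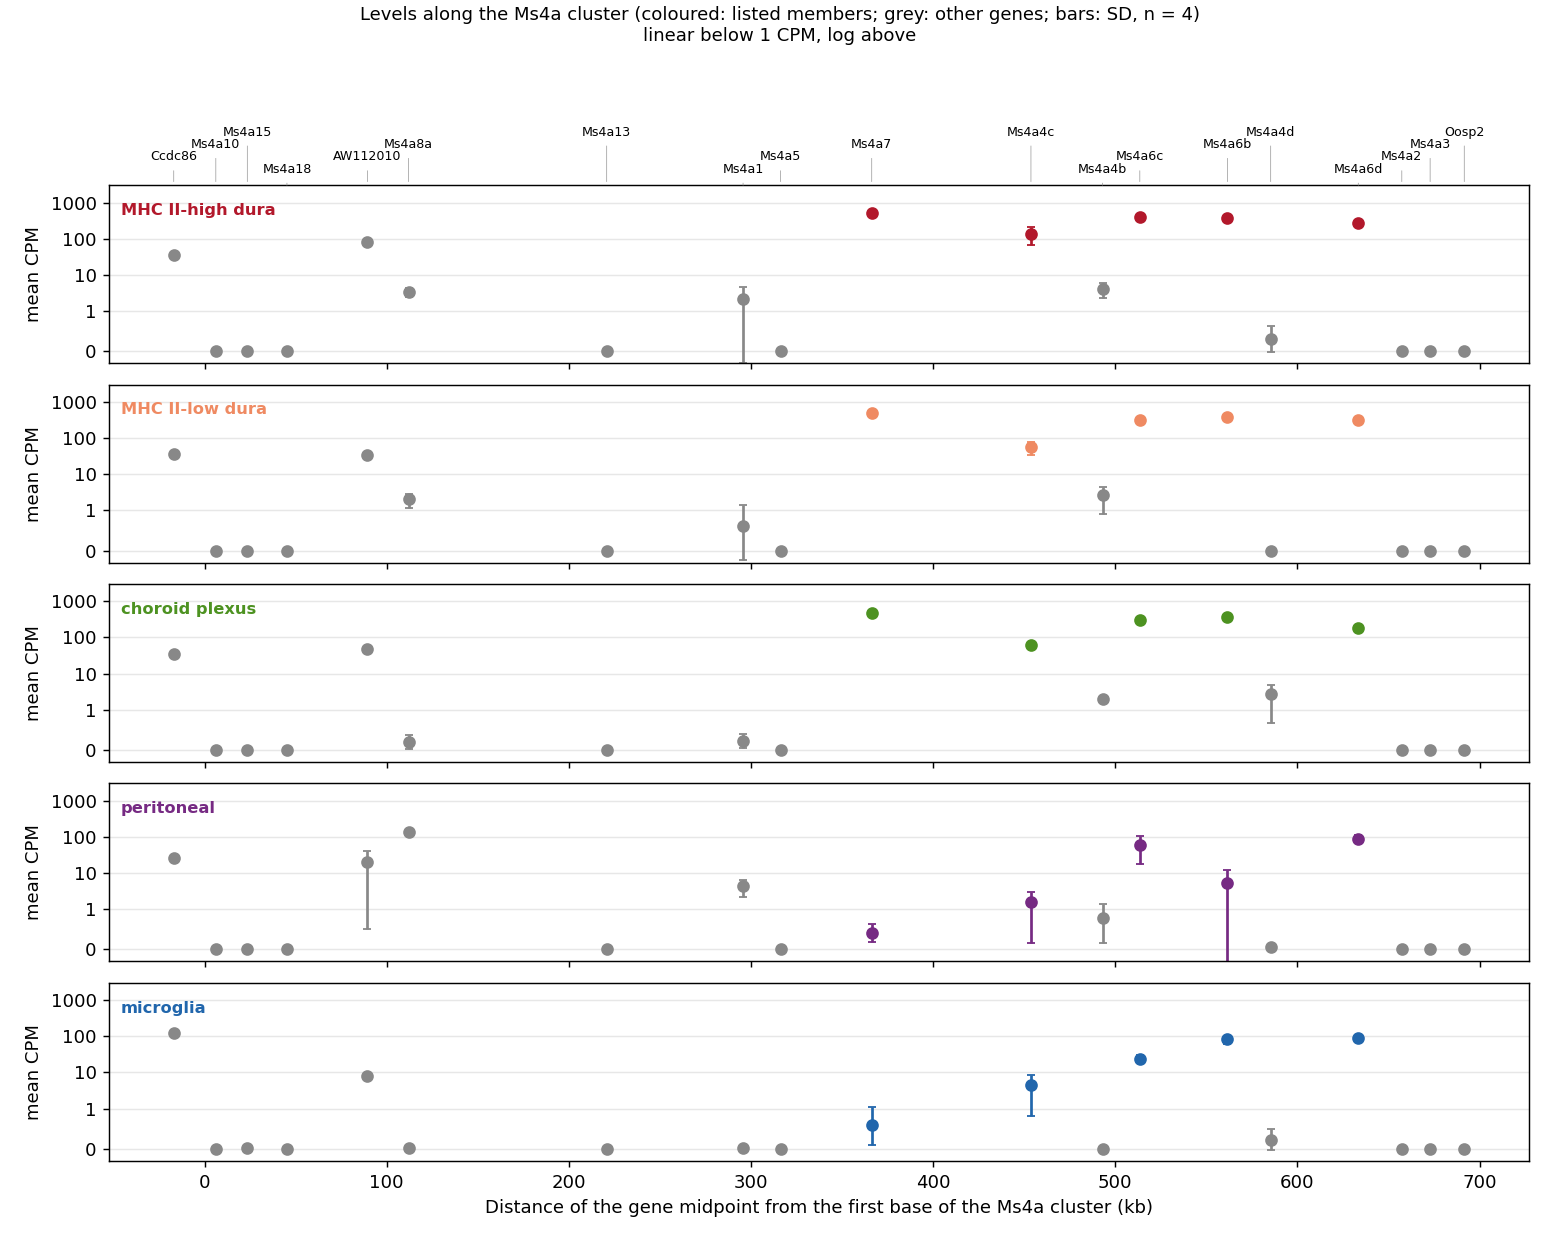
Mean CPM (linear below 1, log above) of the counted Ms4a genes, AW112010 and the nearest gene on each side, by distance along the cluster in kb, with SD bars over 4 libraries and 1 panel per population. The coloured members stand among grey family genes at or near 0, and Ms4a8a is above 100 CPM in peritoneal macrophages alone.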

How the data were processed

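Raw read counts per gene were used as the authors deposited them, 1 file per library. Per the submitters' processing notes, the build was mm10, and the tools named are TopHat2 2.1.0, SAMtools 0.1.18, Trimmomatic 0.38 and FastQC 0.11.4. Which program counted the reads, with which annotation and whether by strand, is not given in the sources used here. Lines that name no gene (reads in no feature, 5.67 to 13.1% of a library, and ambiguous reads, 0.836 to 1.51%) were kept out of totals and tests.

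Genes were filtered with filterByExpr, scaled by TMM (factors 0.923 to 1.05) and fitted over all 20 libraries with edgeR 4.0.16 in R 4.3.3 (robust quasi-likelihood, 1 term per population, 15 residual degrees of freedom, common biological coefficient of variation 0.302). Benjamini-Hochberg adjustment covered the 13960 genes tested, and the 10 comparisons share libraries. SEs were derived as the log2 fold change divided by the square root of F, so they are approximate. A count of 0 allows up to 3 counts per library, and such limits cover counting error only.

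The members and gene lists were chosen with earlier results of these data known. Named genes are the 7 members, other Ms4a symbols at 10 CPM or more (and Ms4a1 and Ms4a2), Tmem176a and Tmem176b, genes within 300 kb of the cluster as counts with the nearest on each side, and the 3 nearest profiles per member. Ms4a4b, Ms4a4d and AW112010 were named after their values were seen. Alternatives were DESeq2 1.42.0, other scalings, no filter, the 2 populations alone, a replicate block, no minimum fold, counts thinned to 13383274 per library, and each library left out. Leaving out peritoneal replicates 1 and 4 together, the effect of single microglia libraries on the nearest profiles and the ratios over all neighbouring genes were added after seeing the data. Positions come from GENCODE M21 and promoter sequences from RefSeq on GRCm38.p6.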

Additional observations from a re-analysis of the deposited data

Results flagged for a closer look

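In 2 of 25 groups (5 members in 5 populations) 1 library stood apart from the other 3 by more than Dixon's 95% critical value for 4 samples, where chance gives about 1 in 20. Ms4a7 was highest in microglia replicate 1, at 1.38 CPM, with a gap to the next library of 0.850 of the range. That value rests on 22 counts. Ms4a6d was highest in choroid plexus replicate 3, at 213 CPM, with a gap of 0.914 of the range, and without this library it was under 2-fold over microglia and over peritoneal macrophages. The cause was not tested for either.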

How the results depend on the processing

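Of 1409 alternative values of the members' fold changes, 1346 kept their direction and their side of the threshold, 15 fell below it, 13 passed it, 35 uncalled values moved, and none of the called values reversed. Counts of members called moved under these settings. With the replicate number as a block, 1 member (Ms4a4c, log2 difference 1.22, edgeR adjusted p = 0.0217) was called between the dura populations, beside 3.72% of all genes. The titles' numbers are not stated to pair libraries, and over 36 same-numbered pairs the correlation of deviations was −0.146 to 0.12, with 1 over 0.1. With the 2 populations alone, 1 member was called between MHC II-high dura and choroid plexus (Ms4a4c, 12.3% of all genes) and 1 between peritoneal macrophages and microglia (42.6%). Without a minimum fold, 1 was called (Ms4a6d) between each dura population and the choroid plexus, beside 26.3% and 29.2% of all genes. Thinning gave 4 between peritoneal macrophages and microglia (44.7%), with Ms4a4c (−1.83, edgeR adjusted p = 0.0337) and Ms4a7 (−1.23, 0.026) added. Ms4a4c was called there in DESeq2 as well (−1.56, adjusted p = 0.0301) and with RLE scaling (−1.56, edgeR adjusted p = 0.049). With the replicate block it stood at −0.71 (edgeR adjusted p = 0.197). DESeq2 gave 3 between choroid plexus and microglia (15.5%), where Ms4a6d was just under 2-fold (1.00), and it gave no adjusted p for Ms4a6b in any of the 10 comparisons, which is no lost call. In the same comparison, Ms4a6d also fell under 2-fold with RLE scaling (0.996), the 2 populations alone (0.965) and thinning (0.970). Between choroid plexus and peritoneal macrophages it did so with scaling by library totals only (0.986). With 1 library left out the counts were 4 to 5 for choroid plexus against peritoneal macrophages and against microglia, 2 to 3 for peritoneal macrophages against microglia, and 5 or 0 as before elsewhere. With all libraries kept, the shares of all genes called in the comparisons named here were 36.7%, 19.2% and 44.6%. The count of neighbour ratios past the threshold went from 28 to 0 with any library left out (0 to 0), because tests of 4 against 3 cannot reach it and, with fewer tests at the smallest p, the adjustment lifts the rest above it. It was 27 to 28 with other prior counts. Of the 15 nearest profiles, 4 were kept over the 20 libraries, 6 without peritoneal replicates 1 and 4, and 10 and 11 without microglia replicate 3 or 5. Scaling moved the median of all genes by less than 0.1. Depth limits Ms4a7 outside the border populations, where it rests on 3 to 22 counts per library.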
